A study of Bos taurus with 20 samples.

Results

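The transcripts described here encode 6 corepressors and corepressor-linked proteins (CTBP1, CTBP2, RUNX1T1, TLE1, TLE3 and NCOR1) and 3 GATA transcription factors (GATA2, GATA3 and GATA6). They were chosen by name, with earlier results of these data known. Some of them, but not all, are known for restraining fat cell formation. All 9 were found among the 33063 named genes of the count table. RNA was sequenced from 20 clonal populations of bovine mesenchymal stem cells (MSCs), with 1 library per clone. Each clone was grown from a single sorted cell of the visceral fat of 1 of 4 young crossbred calves, in medium with serum and basic fibroblast growth factor, and its RNA was taken before any differentiation. The 10 adipogenic (A) clones had formed lipid-filled cells in a parallel differentiation test and again after further expansion, and were those with the highest capacity to do so. The 10 non-adipogenic (N) clones had failed the first test. From animals 17 and 20 there was 1 clone of each kind, and from animals 22 and 23 there were 4 of each kind. Clones are named by animal and clone number, so that N clone 22-5 is clone 5 of animal 22.

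Corepressors do not bind DNA by themselves. They are brought to genes by transcription factors and recruit histone deacetylases, demethylases and methyltransferases that lower transcription. CtBP proteins are recruited through short peptide motifs of their partner factors, the TLE proteins are the mammalian counterparts of Drosophila Groucho, RUNX1T1 (also called ETO or MTG8) bridges DNA-binding proteins to NCoR and deacetylases, and NCoR silences the targets of unliganded nuclear receptors, among them PPARγ, the master regulator of adipogenesis. GATA2 and GATA3 are zinc finger factors that hold pre-adipocytes in an undifferentiated state by lowering PPARγ, and GATA6 is a family member known from endoderm, heart and mesothelium. Not every listed protein acts in a single direction, since TLE3 has also been described as a partner of PPARγ in fat cells and CtBP proteins work with PRDM16 in brown fat.

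A library held 14908802 to 43111345 counts in N clones and 14615493 to 29185355 in A clones. The unit of all levels is CPM, that is, counts brought to a common library total with edgeR's TMM factor. The summed level of 6 mesenchymal stromal transcripts ranged from 2729 to 5077 CPM in N clones and from 3308 to 5425 CPM in A clones. ITGB1 alone had a mean of 2201 CPM in N and 2584 CPM in A clones, so this sum says little of the others. PTPRC, which marks blood cells, was between 0 and 0.253 CPM in every clone. The other blood and macrophage markers were low too, but not equal between groups: the 6 of them summed to 0.590 to 4.05 CPM in N clones and 2.82 to 9.40 CPM in A clones, the only one tested, CD68, was higher in A clones (log2 fold change 1.06, adjusted p = 0.0157), and CSF1R, at 0 to 0.255 CPM in N and 0.476 to 2.38 CPM in A clones, did not overlap. The 6 smooth muscle and pericyte transcripts summed to 1082 to 9891 CPM in N clones and 3968 to 10671 CPM in A clones. All 5 of them that were tested had a positive fold change, and MYH11 was higher in A clones (log2 fold change 3.04, adjusted p = 0.0484). The part of such cells or transcripts in the results was not tested. N clones 22-5 and 22-9 stood apart from the other clones. The summed level of 8 mesothelial transcripts, keratins and WT1 among them, was 9419 CPM in 22-5 and 6741 CPM in 22-9, while the remaining N clones had 8.82 to 314 CPM and A clones 8.58 to 1131 CPM, where 22-11 (1131 CPM), 22-16 (965.0 CPM) and 23-62 (401 CPM) were highest. In 22-5 the MSC surface transcripts NT5E and THY1 were at 0.508 and 0.395 CPM, lower than in any other clone. Fold changes of members that rest on this pair of clones are therefore given with and without them, and the part these cells play in the results was not tested.

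Of the 8 members that passed the filter on low counts, 4 were lower in A than in N clones at an adjusted p under 0.05 (CTBP1, RUNX1T1, TLE3 and GATA6) and 0 were higher (edgeR's quasi-likelihood test with the animal as a block, Benjamini-Hochberg adjustment over 12900 genes). Among all genes tested, 20.6% passed this threshold and 10.3% passed it in the lower direction. The median log2 fold change of the 8 members was -0.37, beside -0.01 over all genes tested. When the members were chosen, the authors had already reported CTBP1 and RUNX1T1 as lower in A clones of these data. These comparisons are therefore no independent test of the list. GATA6 alone among them changed by at least 2-fold, as 5.76% of all genes tested did at the same adjusted p. GATA3 did not pass the filter. The 4 calls were not equally stable. Those of CTBP1 and TLE3 held in each of the 20 fits that left out 1 clone, whereas that of RUNX1T1 held in 4 of these fits and that of GATA6 in 7. These fits are not all distinct. Animals 17 and 20 gave 1 clone of each kind, so leaving out either clone removes that animal from the comparison of A with N. In bulk RNA of a clone, fewer cells that express a gene and less RNA of it per cell cannot be told apart.

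**Figure D1:**
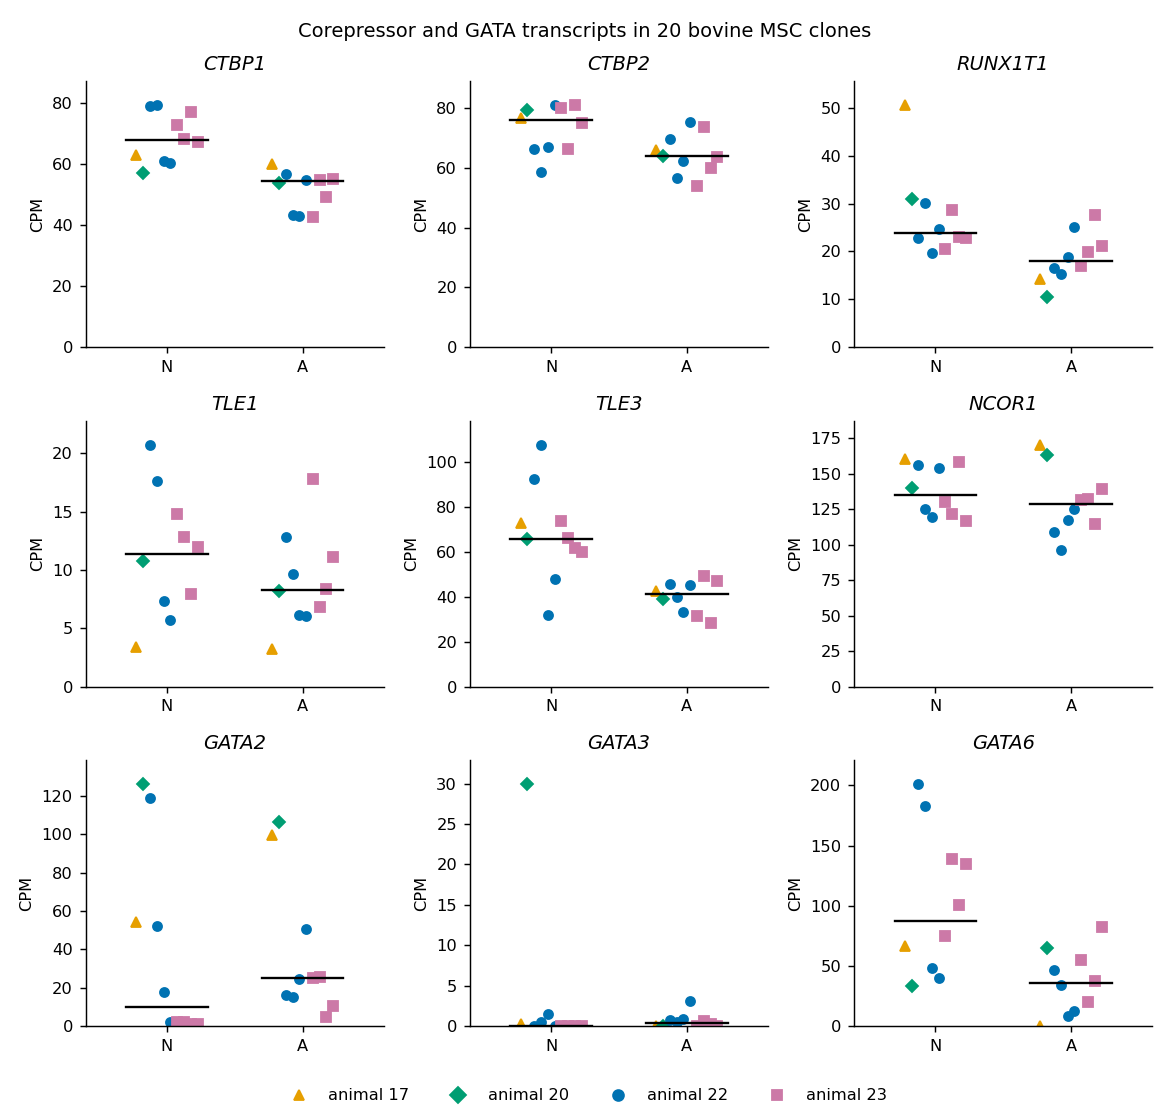
Level of each member in CPM (vertical axis, linear and starting at 0, with its own range in each panel) in N and A clones, 1 point per clone, with symbols for the animal and a line at the median of the 10 clones. CTBP1 shows the least overlap between groups, while GATA2 varies more between animals and clones than between groups and GATA3 stands out in a single N clone at 29.9 CPM.

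CTBP1, the founding C-terminal binding protein, was lower in A clones. Its level ranged from 57.0 to 79.3 CPM in N clones, with a median of 67.7 CPM, and from 42.8 to 59.9 CPM in A clones, with a median of 54.3 CPM. The groups overlapped only through N clone 20-15, the lowest of its group, and A clone 17-57, the highest of its group. Of the A clones 9 were below the whole range of the N clones, and of the N clones 9 were above the whole range of the A clones. The fitted log2 fold change was -0.42 ± 0.09 (SE, n = 10 clones per group; adjusted p = 0.00509), a level 25.1% lower in A clones. The difference had the same sign in all 4 animals, but in mean log2 CPM it was -0.07 in animal 17 and -0.08 in animal 20, each with 1 clone of either kind, and -0.50 in both animal 22 and animal 23. N clones 22-5 and 22-9 were the highest of all clones at 79.2 and 79.3 CPM, and without them the fold change was -0.34 (adjusted p = 0.0198). Transcripts of proliferating cells moved in the same direction. All 6 listed ones had a negative fold change and 3 passed the threshold, among them MKI67 (log2 fold change -1.77, adjusted p = 0.0242), and the summed level of the list ranged from 102 to 492 CPM in N clones and from 24.2 to 295 CPM in A clones. Over the 16 clones of animals 22 and 23, with the mean of each animal and condition removed, MKI67 varied with GATA2 (r = 0.748), TLE3 (0.701) and CTBP1 (0.679). For the other tested members r was between 0.040 (RUNX1T1) and 0.275 (TLE1). The part of proliferation in the results of CTBP1 and the other members was not tested.

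CTBP2, the closest paralog of CTBP1, did not pass the threshold. Its level was 58.7 to 80.9 CPM in N clones (median 75.9) and 54.0 to 75.4 CPM in A clones (median 63.8), with 5 of 10 N clones above every A clone and 2 of 10 A clones below every N clone. The fit gave a log2 fold change of -0.18 ± 0.08 (SE, adjusted p = 0.117). In contrast to CTBP1, the CTBP2 level of N clone 22-9, 58.7 CPM, was the lowest of all N clones. The within-clone log2 ratio of CTBP1 to CTBP2 counts, in which differences in depth cancel, was -0.09 ± 0.28 in N clones and -0.33 ± 0.12 in A clones (SD, n = 10 each), with a shared range between -0.48 and -0.14. The ratio was highest in N clones 22-9 (0.44) and 22-5 (0.25), which widened the spread of the N clones, and the next highest was 0.05 in N clone 23-22. The difference of -0.24 was smaller than the SD of the N clones, and it was not computed without 22-5 and 22-9.

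RUNX1T1 was lower in A clones, but with a change that was unequal between animals. Its level was 19.7 to 50.6 CPM in N clones (median 23.8) and 10.5 to 27.7 CPM in A clones (median 17.9). N clone 17-23 was the highest and A clone 20-106 the lowest of all clones, and 6 of 10 A clones were lower than any N clone. The fitted log2 fold change was -0.53 ± 0.18 (SE, adjusted p = 0.0463). In animal 17 the level was 50.6 CPM in the N clone and 14.2 CPM in the A clone, and in animal 20 it was 31.0 and 10.5 CPM. In animal 22 it was 24.4 ± 4.40 CPM in N and 18.9 ± 4.45 CPM in A clones, and in animal 23 it was 23.7 ± 3.48 and 21.4 ± 4.52 CPM (SD, n = 4 each). The mean log2 difference was thus -1.82 and -1.55 in the animals with a single pair of clones, and -0.37 and -0.16 in the animals with 4 clones of each kind. Leaving out animal 17 gave a fold change of -0.39 (adjusted p = 0.0928), leaving out animal 20 gave -0.42 (adjusted p = 0.0969), and leaving out N clones 22-5 and 22-9 gave -0.52 (adjusted p = 0.0984). The call held only without N clone 22-17, N clone 23-10, A clone 22-121 or A clone 23-68, and over all 20 fits with 1 clone left out the adjusted p ranged from 0.0252 to 0.0966.

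TLE3 had the largest fold change among the corepressors. In N clones its level ranged from 31.9 to 108 CPM, with a median of 65.9 CPM, and in A clones from 28.4 to 49.1 CPM, with a median of 41.2 CPM. The highest N clones were 22-9 (108 CPM) and 22-5 (92.6 CPM), whereas N clones 22-17 (31.9 CPM) and 22-18 (48.0 CPM) of the same animal lay among the A clones, and the other 8 N clones were above every A clone. The fitted log2 fold change was -0.76 ± 0.18 (SE, adjusted p = 0.00838), a level 40.9% lower in A clones. It had the same sign in all 4 animals, with mean log2 differences of -0.78, -0.75, -0.62 and -0.78 in animals 17, 20, 22 and 23. In animal 22 this sign rested on N clones 22-5 and 22-9. N clones 22-17 (31.9 CPM) and 22-18 (48.0 CPM) lay on either side of the A clones of that animal (33.4 to 45.5 CPM). Without 22-5 and 22-9 the fitted fold change over all animals was -0.52 (adjusted p = 0.0371). Over all animals the highest N clone had 3.37 times the level of the lowest, and the highest A clone 1.73 times. This wider range of N clones came from animal 22, with 31.9 to 108 CPM in N and 33.4 to 45.5 CPM in A clones. In animal 23 the order was the opposite, with an SD of 6.24 CPM in N and 10.5 CPM in A clones (n = 4 each).

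TLE1, a close paralog of TLE3 with the same Groucho-type domains, did not pass the threshold. Its level was 3.38 to 20.7 CPM in N clones (median 11.4) and 3.20 to 17.7 CPM in A clones (median 8.27), and the ranges of the groups nearly coincided. The lowest clones of both groups came from animal 17, at 3.38 and 3.20 CPM. The log2 fold change was -0.32 ± 0.25 (SE, adjusted p = 0.37), and it was 0.02 (adjusted p = 0.966) without N clones 22-5 and 22-9, the highest N clones at 20.7 and 17.6 CPM. Per clone, the log2 ratio of TLE1 to TLE3 counts was -2.69 ± 0.68 in N and -2.27 ± 0.78 in A clones (SD, n = 10 each), with 5 A clones above every N clone.

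NCOR1, the nuclear receptor corepressor, did not pass the threshold. Its level was 117 to 160 CPM in N clones (median 135) and 96.1 to 170 CPM in A clones (median 128). A clones 17-57 and 20-106 were higher than any N clone, and A clones 22-11, 22-16 and 23-68 were lower than any N clone. The log2 fold change was -0.10 ± 0.09 (SE, adjusted p = 0.416). By animal, the level was higher in the A clone in animals 17 and 20 (mean log2 difference 0.09 and 0.22), lower in A clones of animal 22 (-0.30), and -0.02 in animal 23.

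**Figure D2:**
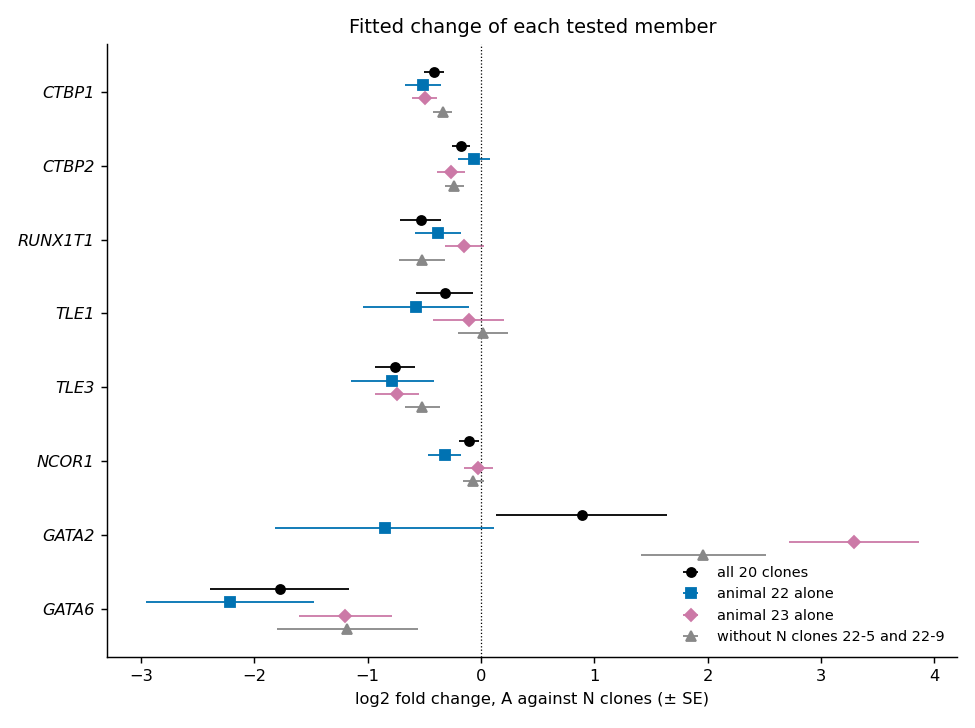
Log2 fold change of A against N clones with its SE (horizontal axis) for the 8 tested members, fitted on all 20 clones, on animal 22 alone, on animal 23 alone and without N clones 22-5 and 22-9. CTBP1, CTBP2, RUNX1T1, TLE3, NCOR1 and GATA6 lie left of 0 in each of these fits, whether or not they passed the threshold. TLE1 lies at 0.02 without N clones 22-5 and 22-9, and GATA2 lies at -0.85 in animal 22 and at 3.29 in animal 23.

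GATA6 showed the largest fitted decrease of the 4 members that fell. Its level ranged from 33.3 to 201 CPM in N clones, with a median of 87.7 CPM, and from 0.0681 to 82.6 CPM in A clones, with a median of 35.9 CPM. The lowest value was A clone 17-57, in which 1 read was counted, and the highest were N clones 22-5 (201 CPM) and 22-9 (182 CPM). The groups overlapped broadly, with 4 of 10 A clones below every N clone and 5 of 10 N clones above every A clone. The fitted log2 fold change was -1.77 ± 0.61 (SE, adjusted p = 0.0494). In animal 17 the N clone had 66.3 CPM, in animal 22 the level was 118 ± 85.6 CPM in N and 25.5 ± 18.1 CPM in A clones, and in animal 23 it was 112 ± 30.3 and 48.8 ± 26.7 CPM (SD, n = 4 each). In animal 20 the order was the opposite, with 33.3 CPM in the N clone and 65.0 CPM in the A clone. The call was close to the threshold. Without N clones 22-5 and 22-9 the fold change was -1.18 (adjusted p = 0.207), without the animal block it was -1.49 (adjusted p = 0.0778), and by DESeq2 with the block, which called 27.4% of all genes, it was -1.79 (adjusted p = 0.00711). Among the fits with 1 clone left out, the call held only without 17-23, 20-15, 22-17 or 22-18 of the N clones, or 17-57, 20-106 or 23-108 of the A clones, and the adjusted p ranged from 0.0288 to 0.0874. Leaving out either clone of animal 17 or of animal 20 amounts to leaving out that animal (log2 fold change -1.45 and -2.04), so these fits do not show the effect of a single clone.

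GATA2 did not pass the threshold over all clones, and the order of its groups differed between animals. It was 1.17 to 126 CPM in N clones (median 10.0) and 4.61 to 106 CPM in A clones (median 24.9). In animals 17 and 20 the clones of both kinds were high, with 54.3 and 126 CPM in the N clones and 99.4 and 106 CPM in the A clones. In animal 23 the 4 N clones had 1.17 to 2.30 CPM and the 4 A clones 4.61 to 25.7 CPM, with no overlap. In animal 22 the N clones spread from 2.24 CPM (22-18) through 17.7 CPM (22-17) and 52.3 CPM (22-9) to 119 CPM (22-5), and the A clones, at 15.4 to 50.9 CPM, lay within that range. The log2 fold change was 0.89 ± 0.75 (SE, adjusted p = 0.408) over all clones and 0.00 without the animal block. It was -0.85 in animal 22 alone (adjusted p = 0.656) and 3.29 in animal 23 alone (adjusted p = 0.0218). The mean difference in log2 CPM, which weights each clone equally, was 0.07 in animal 22 and 2.95 in animal 23, so the sign in animal 22 depended on the measure. Without N clones 22-5 and 22-9, the clones with high mesothelial transcripts, GATA2 was higher in A clones (log2 fold change 1.96, adjusted p = 0.0309).

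The difference in GATA2 between these animals was tested as an interaction of condition and animal over the 16 clones of animals 22 and 23. The change in animal 23 exceeded that in animal 22 by 4.12 ± 1.23 on the log2 scale (SE), with an unadjusted p = 0.00473 from edgeR across all genes that became an adjusted p = 0.344. DESeq2 gave 4.14 (adjusted p = 0.0294). In this test 0 of 9 members passed in edgeR, where 0.0288% of all genes tested passed. On simulated counts the edgeR test found 15% of 2-fold and 65% of 4-fold changes, so a member that did not pass may still differ between the animals. GATA2 was the 1 member with an unadjusted p under 0.05, which 9.17% of all genes had, and the 1 member that passed in DESeq2, as did 0.903% of all genes. For CTBP1 and TLE3 the fitted interaction was 0.00 ± 0.19 and 0.03 ± 0.43 (SE). For differences between the 4 animals, irrespective of condition, 0 of 8 members passed in edgeR, 2 had an unadjusted p under 0.05 (GATA2, adjusted p = 0.0824, and TLE1, adjusted p = 0.146), and 4.60% of all genes tested passed and 22.0% had an unadjusted p under 0.05. DESeq2 called GATA2 in that test (adjusted p = 0.00251), along with 13.3% of all genes, as did edgeR without N clones 22-5 and 22-9 (adjusted p = 0.00884) or without N clone 22-5 alone (adjusted p = 0.0315).

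GATA3 was close to the limit of detection in nearly all clones. N clone 20-15 held 487 reads, or 29.9 CPM, and the next highest level was 3.17 CPM in A clone 22-121. No read was counted in 5 N and 3 A clones, in 1 N and 2 A clones there were 1 to 3 reads, and the remaining 4 N and 5 A clones had more than 3. A count of 0 in N clone 22-5, for instance, allows a level of up to 0.169 CPM when 3 reads are taken as the limit, for counting error only. The A clone of animal 20 had no GATA3 read, so that within this animal GATA3 was found in the N clone only at this depth. Fitted without a filter on low counts, the log2 fold change of GATA3 was 0.94 (adjusted p = 0.63).

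**Figure D3:**
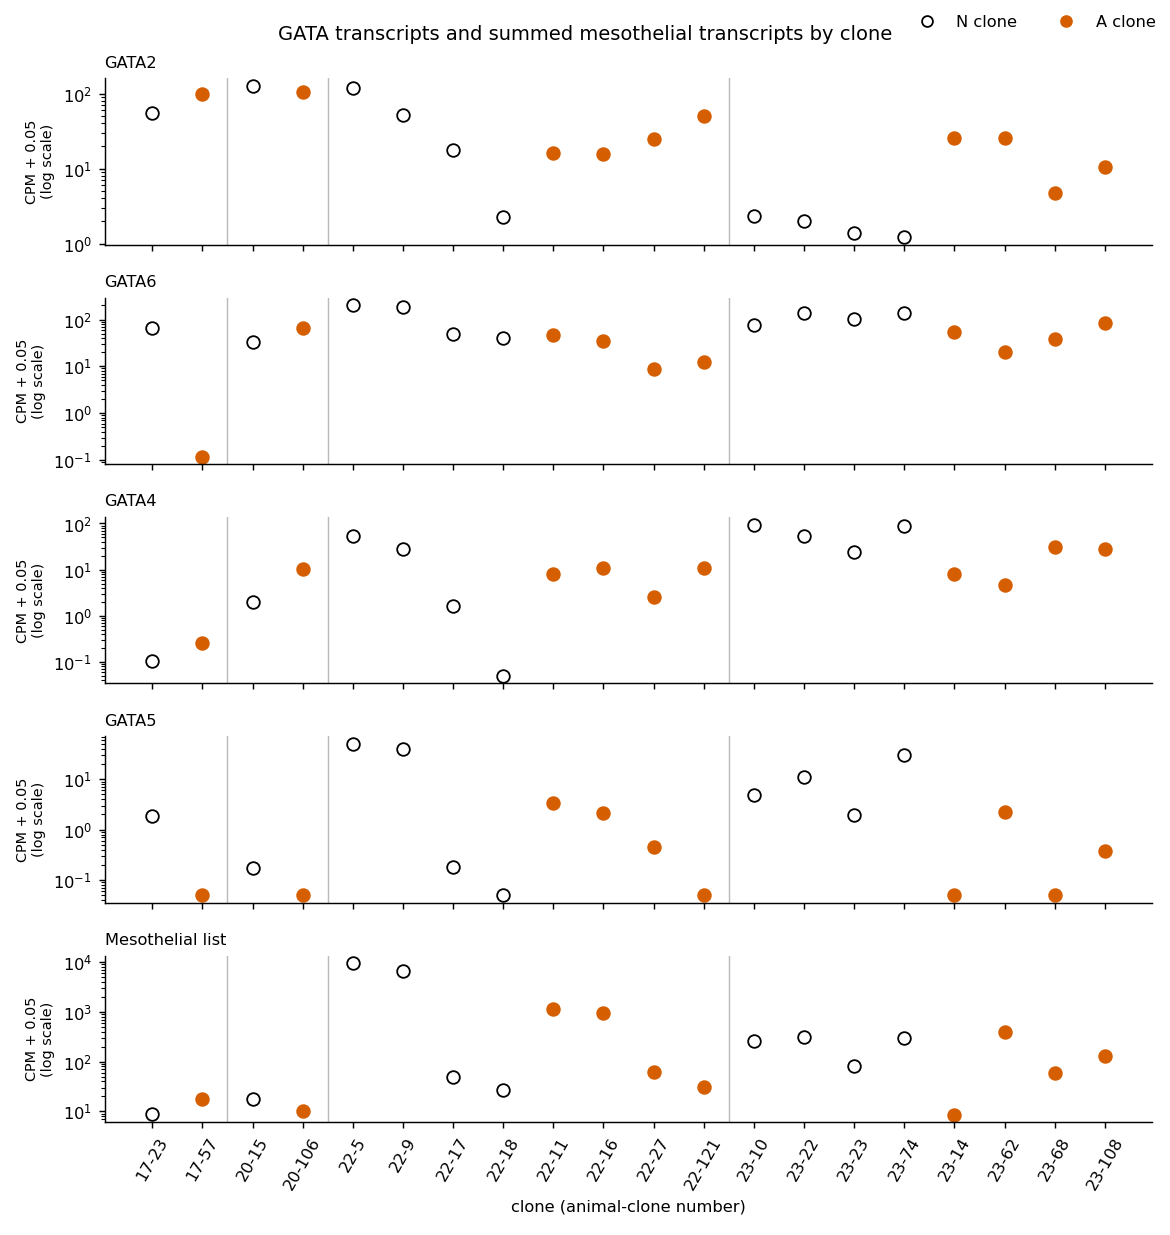
Levels of GATA2, GATA6, GATA4 and GATA5 and the summed level of 8 mesothelial transcripts in each clone, as CPM plus 0.05 on a log axis, with N clones as open and A clones as filled points and lines between animals. N clones 22-5 and 22-9 hold the highest GATA6, GATA5 and mesothelial levels, and the GATA2 levels of the A clones of animal 23 (4.61 to 25.7 CPM) lie above those of its N clones (1.17 to 2.30 CPM).

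The other GATA transcripts were part of a list of partners and paralogs. GATA5, a paralog of GATA6, fell in A clones (log2 fold change -4.17 ± 1.18, SE, adjusted p = 0.0212), with 0 to 49.97 CPM in N clones (median 3.38) and 0 to 3.29 CPM in A clones (median 0.165). The highest N clones were 22-5 (49.97 CPM), 22-9 (40.1 CPM) and 23-74 (30.4 CPM), and without 22-5 and 22-9 the fold change was -2.95 (adjusted p = 0.267). GATA4 ranged from 0 to 94.3 CPM in N and from 0.204 to 31.2 CPM in A clones, with a log2 fold change of -1.26 ± 0.82 (SE, adjusted p = 0.277) that became 0.08 without 22-5 and 22-9 (adjusted p = 0.97). GATA1 had 0 counts in every clone. ZFPM1, or FOG1, a cofactor that binds GATA factors, is named after its values were seen: it reached 145 CPM in N clone 22-5 and 73.8 CPM in 22-9, against 0.477 to 21.3 CPM in the other clones, with a log2 fold change of -2.27 ± 0.85 (SE, adjusted p = 0.0661).

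Of the 33 partners and paralogs listed, 30 could be tested, and 5 were lower and 1 higher in A clones, a share close to the 20.6% of all genes tested. Their median log2 fold change was -0.17. In the NCoR complex 2 of 5 fell, and these were the TBL1X subunit that exchanges corepressors for coactivators (log2 fold change -0.70 ± 0.16, SE, adjusted p = 0.00684) and GPS2 (-0.52 ± 0.15, adjusted p = 0.0209). TBL1X was 84.7 to 147 CPM in N clones and 39.4 to 98.7 CPM in A clones, with 6 A clones below every N clone. Among 10 tested partners of CtBP, EHMT2 (also called G9a), a histone H3 lysine methyltransferase, fell (-0.54 ± 0.16, adjusted p = 0.0248), and HDAC1 had -0.21 ± 0.10 (adjusted p = 0.158). In the Groucho family TLE6, a divergent member, rose (1.2 ± 0.20, adjusted p = 0.00136) from 0.680 to 1.53 CPM in N clones to 1.23 to 5.00 CPM in A clones, with 9 A clones above every N clone, whereas AES, a short member of the family that lacks the repeat domain, had -0.12 ± 0.12 (adjusted p = 0.476). CBFA2T2, the paralog of RUNX1T1, had -0.15 ± 0.15 (adjusted p = 0.517). The within-clone log2 ratio of RUNX1T1 to CBFA2T2 counts was 0.86 ± 0.32 in N and 0.49 ± 0.33 in A clones (SD, n = 10 each), with 5 A clones below every N clone. In the Sin3 list SIN3A, the scaffold of the Sin3 deacetylase complex, fell (-0.34 ± 0.11, adjusted p = 0.033) and RBBP7 had 0.12 ± 0.20 (adjusted p = 0.697). Without N clones 22-5 and 22-9, 4 partners passed, as did 1859 of 13114 genes tested. Of these partners 2 were among the 6 (TBL1X, adjusted p = 0.0238, and TLE6, adjusted p = 0.00526). The others were RCOR1, higher in A clones (log2 fold change 0.33, adjusted p = 0.0332), and ZFPM2, lower in A clones (-0.59, adjusted p = 0.0431).

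**Figure D4:**
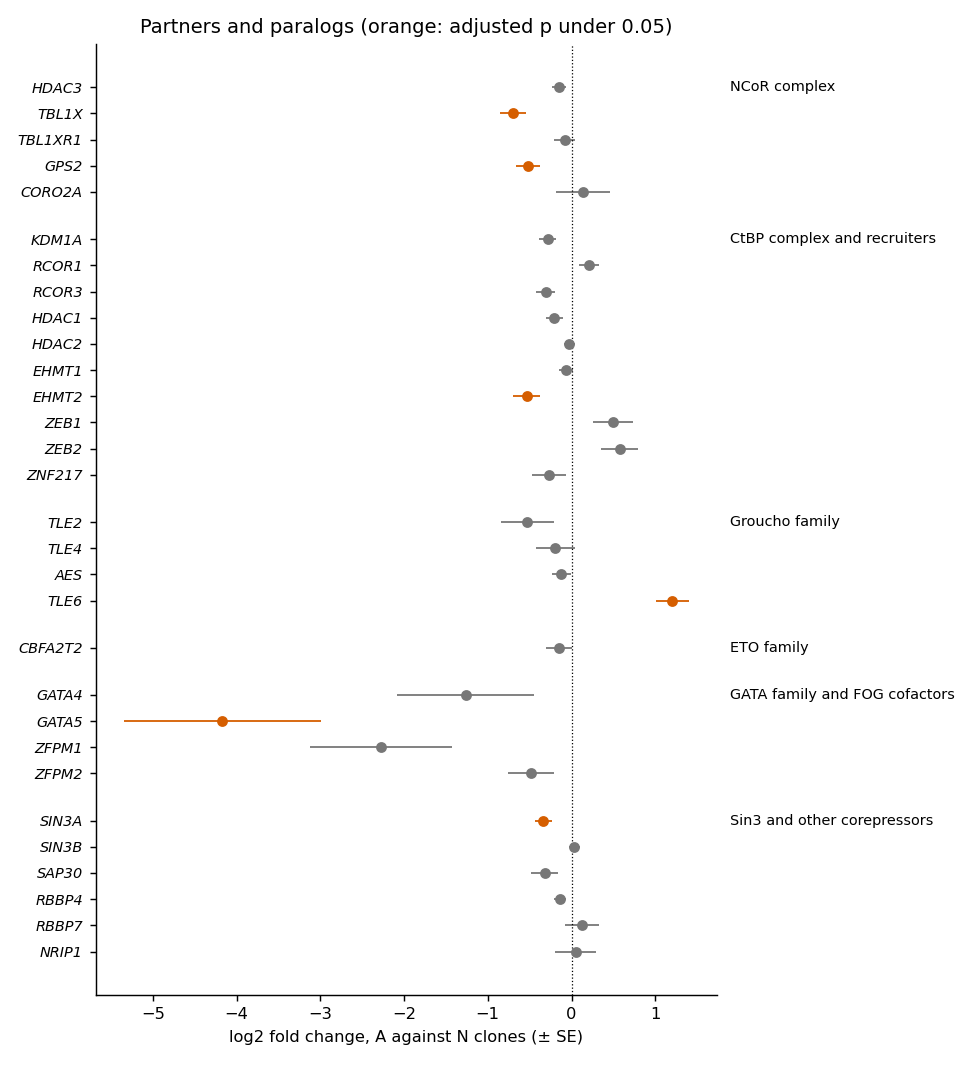
Log2 fold change of A against N clones with its SE (horizontal axis) for the 30 tested partners and paralogs, grouped by list, with those at an adjusted p under 0.05 in orange. GATA5 (-4.17) and TLE6 (1.2) lie farthest from 0 among those in orange.

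Members differed in how much clones of the same animal and condition varied. Over the 16 clones of animals 22 and 23, the SD of log2 CPM around the mean of each animal and condition was 0.17 for NCOR1 and CTBP2 and 0.18 for CTBP1, below the median of 0.32 over all genes tested. It was 0.27 for RUNX1T1, 0.47 for TLE3, 0.63 for TLE1, 0.97 for GATA6 and 1.43 for GATA2, whose SD lay at the 95.3 percentile of all genes tested. The corepressors CTBP1, CTBP2 and NCOR1 were thus among the more even transcripts, and GATA2 and GATA6 among the more uneven ones, between sister clones. The same 16 clones, with these means removed, were used to find the genes whose pattern was most like that of a member. For GATA6 the most alike was LOC100336909, a long non-coding RNA gene placed next to GATA6 by the RefSeq annotation, which is of a later build than the table (Pearson's r = 0.939 across 16 clones), which was at 0.368 to 9.06 CPM in N clones and 0 to 3.41 CPM in A clones, and was highest in 22-5 and 22-9 like GATA6. Next were SYNPO and TMEM98, both at r = 0.906. For CTBP1 these were CTDNEP1, SCRIB and LOC511229 (r = 0.877, 0.876 and 0.875), for TLE3 SPATA2L, LOC112449282 and TTLL12 (0.948, 0.925 and 0.913), and for NCOR1 DYNC1H1, ANKRD17 and KCTD2 (0.945, 0.906 and 0.894). For RUNX1T1 they were LOC101906012, SUCLG2 and C2CD5 (0.866, 0.860 and 0.856), and for GATA2 C8H9orf43, MPC2 and IFT46 (0.905, 0.884 and 0.877). For CTBP2 they were JPT2, PER2 and IFNAR1 (0.869, 0.859 and 0.846), and for TLE1 BDKRB2, LPCAT2 and XAB2 (0.929, 0.913 and 0.911). Among the members themselves, TLE1 and GATA6 (r = 0.833) and CTBP1 and TLE3 (r = 0.776) varied most alike. The 16 points come from animals 22 and 23 only and include N clones 22-5 and 22-9, and the correlations are given as descriptions.

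For reference, PPARG, the gene of PPARγ, was 0 to 6.29 CPM in N clones and 4.34 to 19.8 CPM in A clones (log2 fold change 3.77, adjusted p = 0.00486). CEBPA, its partner in adipogenesis, was at 0 to 1.63 CPM in N and 0.189 to 5.74 CPM in A clones and did not pass the filter on low counts. N clone 22-18 had the highest PPARG level of its group, 6.29 CPM, together with GATA2 at 2.24 CPM and GATA6 at 39.8 CPM. N clones 22-5 and 23-22 had no PPARG read, with GATA6 at 201 and 139 CPM and GATA2 at 119 and 1.96 CPM. In A clone 17-57 PPARG was highest at 19.8 CPM, with GATA2 at 99.4 CPM and GATA6 at 0.0681 CPM. A clone 20-106 had PPARG at 12.8 CPM, GATA2 at 106 CPM and GATA6 at 65.0 CPM. These clones are examples only. Over the 16 clones of animals 22 and 23, with the mean of each animal and condition removed, PPARG varied inversely with GATA6 (r = -0.692) and GATA2 (r = -0.678). For the other tested members r with PPARG ranged from -0.710 (TLE1) to 0.646 (CTBP2). A clones 17-57 and 20-106 are not among these 16 clones. The correlations are descriptions, and a relation between PPARG and the GATA transcripts was not tested beyond them.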

How the data were processed

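RNA was sequenced from 10 A and 10 N clones of 4 animals. Reads were trimmed, mapped with STAR 2.5.2b to ARS-UCD1.2 and counted in exons with Subread 1.5.2, per the submitters' processing notes, and the authors deposited raw counts per gene. Whether counting used strand is not given in the sources used here. CTBP2, RUNX1T1, TLE1, NCOR1, GATA3, GPS2, TBL1X and TLE6 overlap other annotated genes, so their counts are uncertain. The table has 33064 rows, of which 1 unnamed row held 0.113% to 0.333% of the counts and was left out.

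Counts were fitted with edgeR 4.0.16 (TMM, default filter, robust quasi-likelihood test, animal as a block) in R 4.3.3, and p-values were adjusted over all genes tested. The animal pairs the clones: deviations of A and N clones correlated at 0.184, 0.128, 0.239 and 0.422 in animals 17, 20, 22 and 23. The spread between clones of an animal is the error of these tests. Log2 CPM used a prior count of 2. Alternatives used DESeq2 1.42.0 and limma-voom (limma 3.58.1), other filters and normalizations, single animals, sums per animal and each clone left out. Scripts were tested on simulated data. The text names every member, every listed partner past the threshold, 1 other partner with the highest level in each list except that of the NCoR complex, and the 3 genes most like each member. ZFPM1 and the fits without N clones 22-5 and 22-9 were added after seeing the data. Beyond the 33 listed partners counted, the result of 1 more is not reported here. Members and lists were chosen with earlier results of these data known.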

Additional observations from a re-analysis of the deposited data

Results flagged for a closer look

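Within groups of 4 or 10 clones, 5 of 66 groups examined held a clone far from the others on the log2 CPM scale by Dixon's criterion, and chance gives about 1 in 20. The measure is the gap from that clone to its nearest neighbour as a share of the range of the group. RUNX1T1 in N clone 17-23 was 50.6 CPM, where the remaining N clones had 19.7 to 31.0 CPM (share 0.520). GATA3 in N clone 20-15 was 29.9 CPM, against 0 to 1.52 CPM (share 0.515). GATA6 in A clone 17-57 was 0.0681 CPM, where the remaining A clones had 8.67 to 82.6 CPM (share 0.637). GPS2 in A clone 20-106 was 12.1 CPM, against 18.3 to 29.2 CPM (share 0.469). GATA3 in N clone 23-10 was 0.0590 CPM from 1 read, against 0 in the other 3 N clones of animal 23 (share 1). With 3 clones at 0 any single read gives this share, so it says nothing of that clone, and 4 groups remain to set against chance. Of these clones, 4 came from animals 17 and 20, each of which gave 1 clone of each kind, so that animal and clone cannot be told apart there.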

How the results depend on the processing

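The 4 members past the threshold, all lower in A clones, became 2 with no filter on low counts, 2 in animal 23 alone (CTBP1, lower, and GATA2, higher), 1 without animal 22, and 0 in animal 22 alone, without animal 23 or with counts summed per animal and condition. In the last 3 fits few genes passed at all (153 of 13305, 32 of 13071 and 0 of 14669, with 2243 at an unadjusted p under 0.05). Of all genes, 2658 of 12900 passed in the main fit, 2755 of 23383 with no filter, 800 of 12853 in animal 23 alone and 1471 of 12816 without animal 22. With 1 clone left out the number of members past the threshold ranged from 2 to 4, and that of all genes from 1984 to 3133. Without the replicate block 3 members passed, with the GATA6 call lost, as did 2168 of 12900 genes. Without N clones 22-5 and 22-9, 3 members passed, as did 1859 of 13114 genes. There 2 of the 4 members remained and GATA2 was added. The 6 partners past the threshold became 10 by DESeq2 with the block, 2 in animal 23 alone, and 0 in animal 22 alone, without animal 23 or with summed counts, and ranged from 4 to 8 with 1 clone left out. For the interaction, 1 member passed by DESeq2 and 0 in every fit with 1 clone left out. For differences between animals, 1 passed by DESeq2 and 1 without N clones 22-5 and 22-9, and 0 to 1 with 1 clone left out. Members that changed sign were TLE1 without 22-5 and 22-9 (0.018), NCOR1 with summed counts (0.0059) and without animal 22 (0.037), and GATA2 without animal 23 (-0.48) and in animal 22 alone (-0.85). Fold changes kept their sign where CTBP1 lost its call without animal 22 (adjusted p = 0.0541), without animal 23 (0.181), in animal 22 alone (0.155) and with summed counts (0.416), at -0.25 to -0.51, and where TLE3 did without animal 23 (0.16), in either animal alone (0.295 in 22 and 0.0575 in 23) and with summed counts (0.225), at -0.68 to -0.78. GATA6 has no value with at least 10 counts in every clone, since 17-57 has 1. Summed counts left 4 A and 4 N sums, and fits of 1 animal or without 1 animal rest on fewer clones. The cause of the other changes was not tested.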
